A study of Mus musculus with 3 samples.

Results

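The nuclear genes of mitochondrial complex I were followed in RNA from brain vessels. The members are the protein-coding genes of the mouse annotation whose symbols begin with Nduf followed by a subunit letter or by af (assembly factor) and a number, without Ndufa4l2. The rule found 45 genes, 37 named as subunits and 8 as assembly factors, and 44 of them were measured, among 16604 genes measured in all. The missing one is Ndufaf2, none of whose transcripts could be matched, so that 7 assembly factors are described. All 44 passed the filter on low levels. They lie on 17 chromosomes, and Ndufa1 and Ndufb11 are the 2 on the X.

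Each of the 3 libraries came from vessels of 3 months-old mice. In the Cx43-deleted library, titled hGFAP-Cre/Cx43fl/fl and given the genotype Cx43 -/-, both alleles of the connexin 43 gene (Gja1) were floxed and Cre was driven by the GFAP promoter, which is used to target astroglia. Its background is C57BL6-BALB/c. The second library is wild type (WT) on C57BL6-BALB/c, the background-matched control, and the other is WT C57BL6. The labels list no Cre or floxed allele for either WT group, and no source used here tells if a library holds the RNA of 1 animal or of several. The series asks how the deletion compares with each of the WT backgrounds.

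Complex I, the NADH dehydrogenase of the inner mitochondrial membrane, takes electrons from NADH, passes them along iron-sulfur clusters to ubiquinone and pumps protons across the membrane. It is L-shaped: a matrix arm holds the flavin, the clusters and the ubiquinone site, and a membrane arm holds the pumps, which are encoded by mitochondrial DNA (the mt-Nd genes). Around the conserved core subunits sit many accessory subunits, and assembly factors help to build the complex without staying in it. Brain endothelium is known for its high content of mitochondria.

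With 1 library per group there is no replicate and no test. The differences below compare libraries, their spread between animals is unknown, and the 95% intervals cover counting error only. In bulk RNA, fewer cells of a type and less RNA per cell cannot be told apart. Values for the libraries are given throughout with Cx43-deleted first, the matched control second and WT C57BL6 last. In this order the sequencing depth was 54975610, 21170766 and 24830975 reads. The level of a gene is its counts summed over transcripts relative to the depth of the library, in CPM, scaled between libraries. The targeted gene, Gja1, had levels of 48.0, 202 and 202, lowest where the labels place the deletion. Vessel markers were present: the levels of 10 endothelial markers, such as Cldn5 and Cdh5, summed to 7351, 6792 and 10776. Slc2a1, with levels of 2828, 1653 and 2162, put the first of these sums above the second. Of the 10 genes, 6 had lower levels in Cx43-deleted than in the matched control and 4 had higher ones. Their median log2 ratio of Cx43-deleted to the matched control was -0.15. The levels of 8 neuronal markers summed to 5602, 5555 and 4140, and those of 6 oligodendrocyte markers to 13272, 13740 and 17137. Camk2a, with levels of 2567, 2280 and 1404, put the first neuronal sum above the second. Of the 8 neuronal markers, 5 were lower in Cx43-deleted than in the matched control and 3 higher. The median log2 ratio of these 8 was -0.08. Mbp, with levels of 11585, 12015 and 15382, made up most of the oligodendrocyte sums.

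Short stretches of promoter are shown first, because a few factors are known as regulators of respiratory genes. RefSeq promoter windows on GRCm38.p6, from 250 bases before to 50 after the start of the gene, were at hand for 39 members and for 27025 genes in all. Of 7 motifs searched on both strands, the letters AAGATGGC, bound by the factor YY1, were found in 8 of the 39 windows (20.5%), against 3.19% of all windows and 3.57% of those of protein-coding genes. The 8-base core of the site of the factor NRF1, GCATGCGC, was found in 5 windows (12.8%), against 3.05% of all. The longer 10-base NRF1 site, in which GC precedes that core, was in 3 of these 5 (7.69%), against 1.07% of all. One match in each of the 5 windows with the NRF1 core follows, with its letters, or those of the longer site, in capitals and 10 bases on either side.
Ndufa6 (chr15:82354357-82354384, minus strand): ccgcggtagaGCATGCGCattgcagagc
Ndufa8 (chr2:36049329-36049356, minus strand): cgctggagacGCATGCGCagatggtacc
Ndufa11 (chr17:56717692-56717721, plus strand): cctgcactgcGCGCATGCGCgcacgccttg
Ndufaf4 (chr4:24897960-24897989, plus strand): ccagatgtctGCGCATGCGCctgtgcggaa
Ndufaf5 (chr2:140170652-140170681, plus strand): agtcccgttgGCGCATGCGCctaatagaaa

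The printed match in Ndufa6, Ndufa8, Ndufa11 and Ndufaf4 lay before the start of the gene and that in Ndufaf5 after it, all within 113 bases. Ndufaf4 held a further match to the core on the opposite strand, beginning 2 bases after its start. The 8 matches to the YY1 letters shared one arrangement. All ran in the direction of the gene and began 11 to 39 bases after its start, and 7 of the 8 overlapped the annotated start codon, since the letters contain ATG. The windows of all genes were not limited to those that hold a start codon. What this contributes to the difference in shares was not tested. The 8 matches are shown with the motif in capitals.
Ndufs4 (chr13:114388048-114388069, minus strand): tgcctacaggAAGATGGCggcg
Ndufs6 (chr13:73328438-73328459, minus strand): ggtcaccggcAAGATGGCggcg
Ndufs7 (chr10:80249463-80249484, plus strand): ggccgaggccAAGATGGCggcg
Ndufa3 (chr7:3617385-3617406, plus strand): cgccaagaacAAGATGGCcggg
Ndufa9 (chr6:126849104-126849125, minus strand): attgtgggagAAGATGGCggcc
Ndufb8 (chr19:44555393-44555414, minus strand): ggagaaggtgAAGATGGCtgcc
Ndufc1 (chr3:51408922-51408943, minus strand): cctgcggaacAAGATGGCgccg
Ndufaf8 (chr11:120098934-120098955, plus strand): ggcagggcccAAGATGGCggcg

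The match of Ndufaf8 is the one that overlapped no annotated start codon. The other motifs were found in a share of member windows at or below that of all windows, except the site of the estrogen-related receptors (TGACCTT, 3 windows, 7.69% against 5.38%). The GC box GGGCGGGGC was in 4 windows (10.3% against 12.4%), the CCAAT box in 13 (33.3% against 41.1%) and the ETS site CCGGAAGT in 1 (2.56% against 4.31%). A match describes letters and says nothing of binding in these vessels.

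Taken as a group, the complex I genes lay at nearly the same level in the Cx43-deleted library and its background-matched control and were higher in WT C57BL6 than in both. The summed levels of the 44 genes were 2933, 2721 and 3288. Genes with high levels or with many counted transcripts weigh most in such sums, since a read can be counted for more than 1 transcript. Ndufv1 alone had levels of 652, 585 and 625. The medians below give each gene the same weight. The median log2 ratio of Cx43-deleted to WT C57BL6-BALB/c was 0.02 over the members and 0.00 over all measured genes, with 24 members higher and 20 lower. Over all genes 50.5% were higher and 49.5% lower, so these counts are near the background. The median log2 ratio of Cx43-deleted to WT C57BL6 was -0.36, against -0.03 over all genes, and 35 of 44 members were lower where 52.9% of all genes were. The other 9 were higher, against 47.1% of all genes. In that comparison the deletion and the background differ together and cannot be told apart. Between the WT libraries, which carry no deletion, the median was -0.39 (WT C57BL6-BALB/c to WT C57BL6), against -0.03 over all genes, and 36 of 44 members were lower in WT C57BL6-BALB/c where 53.3% of all genes were. The other 8 members were higher there, as were 46.7% of all genes. The last 2 comparisons share the WT C57BL6 library.

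Counted against both other libraries at once, 33 of 44 members had their highest level in WT C57BL6, as did 43.8% of all genes. The Cx43-deleted library was above both WT libraries for 9 members (33.2% of all genes) and below both for 20 (35.6%). The WT C57BL6-BALB/c library was highest for 2 members (23.0% of all genes) and lowest for 18 (26.8%), and WT C57BL6 was lowest for 6 (37.5%). No member differed by 2-fold or more in any of the 3 comparisons; with libraries scaled by their totals alone, Ndufs6 passed 2-fold in Cx43-deleted to WT C57BL6. Of all genes, 1.05% were 2-fold or more higher and 1.01% lower in Cx43-deleted than in WT C57BL6-BALB/c, 1.54% higher and 2.91% lower than in WT C57BL6, and 1.17% higher and 2.09% lower in WT C57BL6-BALB/c than in WT C57BL6. At 1.5-fold, 4 members (Ndufa2, Ndufa4, Ndufa7 and Ndufc2) were above both other libraries in WT C57BL6, against 5.71% of all genes, and none was beyond both in either direction in the Cx43-deleted library, where 1.32% of all genes were above and 2.19% below.

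**Figure D1:**
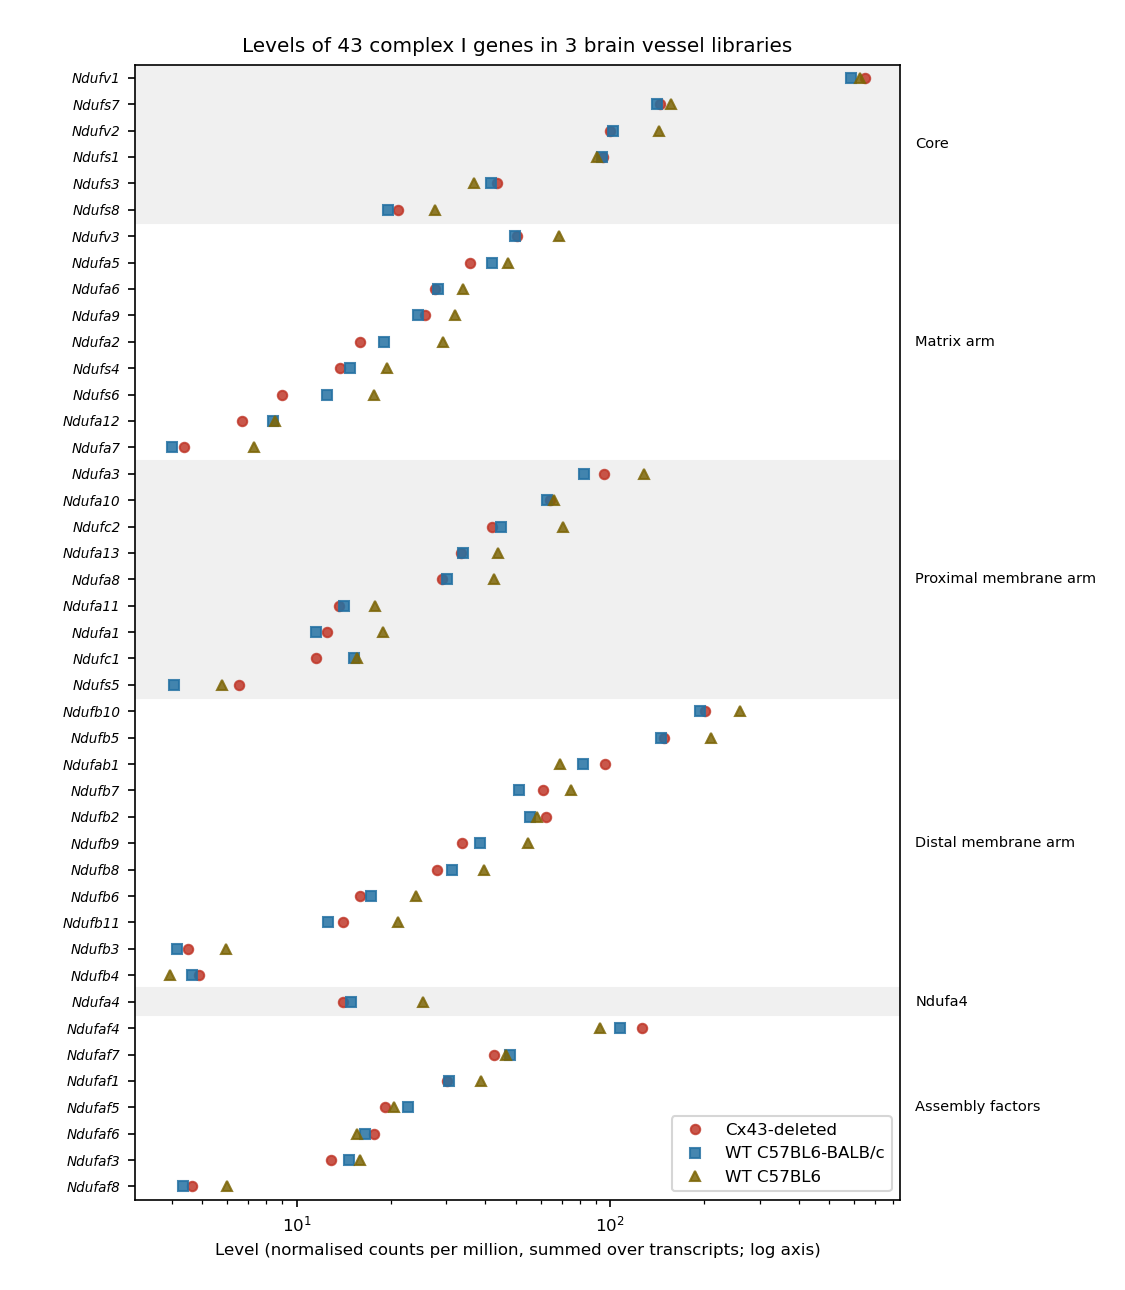
Level of 43 measured complex I genes in the 3 libraries (CPM, log axis), grouped by role, 1 point per library. The WT C57BL6 point is the highest of the 3 for 32 of these genes, and the Cx43-deleted and WT C57BL6-BALB/c points lie close together for most.

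Levels of different genes can be compared only per length of transcript, and this was done with the reads of the most abundant transcript of each gene per kilobase, scaled to CPM. The highest was Ndufa13, a small membrane subunit also known as GRIM-19, with 69.8, 70.4 and 91.0. The flavin-binding core subunit Ndufv1 had 64.9, 58.5 and 63.9. Averaged over the libraries, the range ran from 77.1 for Ndufa13, 65.0 for Ndufb9 and 62.4 for Ndufv1 to 4.46 for Ndufaf6 and 3.55 for Ndufs5. Ndufs5 is also among the genes with gaps in coverage described below.

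The 7 nuclear core subunits, which carry the electron transfer, had medians nearer to 0 than the accessory groups in both comparisons with WT C57BL6. Their median log2 ratio was 0.06 between Cx43-deleted and WT C57BL6-BALB/c, -0.03 between Cx43-deleted and WT C57BL6, and -0.15 between the WT libraries. WT C57BL6 was the highest library for 4 of the 7, against 43.8% of all genes. Ndufv1 (ENSMUSG00000037916, chr19:4007384-4012806 on GRCm38), which binds FMN and accepts electrons from NADH, had levels of 652, 585 and 625. Its reads were 1.11-fold higher in the Cx43-deleted library than in WT C57BL6-BALB/c (95% interval 1.06 to 1.17; 5784 and 2060 reads). Ndufs1, the largest subunit, which carries clusters of the NADH-oxidising module, had levels of 95.1, 93.9 and 90.9. These differed by no more than counting error: the fold of Cx43-deleted to WT C57BL6-BALB/c was 1.04 (0.985 to 1.11; 4076 and 1542 reads), and that of WT C57BL6-BALB/c to WT C57BL6 (1863 reads) was 0.992 (0.926 to 1.06).

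Ndufv2, which holds a cluster beside the flavin, was highest in WT C57BL6, with levels of 99.8, 102 and 143. The fold of WT C57BL6 was 1.44 over WT C57BL6-BALB/c (1.32 to 1.58; 1253 and 725 reads) and 1.46 over Cx43-deleted (1.36 to 1.57; 1810 reads).

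Ndufs7, Ndufs8 and Ndufs3 belong to the module that passes electrons to ubiquinone. Ndufs7, which carries the cluster next to ubiquinone, had levels of 144, 141 and 157, with 1940, 745 and 1027 reads, and was 1.15-fold higher in WT C57BL6 than in WT C57BL6-BALB/c (1.05 to 1.27). Ndufs8, a ferredoxin-like subunit with 2 clusters, had levels of 21.0, 19.5 and 27.6, with 1129, 414 and 700 reads, and was 1.41-fold higher in WT C57BL6 than in WT C57BL6-BALB/c (1.25 to 1.60). Ndufs3, which binds no cluster, was ordered the other way with levels of 43.6, 41.7 and 36.8. Its reads (492, 168 and 195) gave a fold of Cx43-deleted to WT C57BL6-BALB/c of 1.16 (0.970 to 1.39), an interval that holds 1.

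The 9 accessory subunits of the matrix arm all had their highest level in WT C57BL6, as did 43.8% of all genes. The median log2 ratio of the 9 subunits was -0.43 for Cx43-deleted to WT C57BL6 and -0.39 between the WT libraries. The Cx43-deleted library was below both WT libraries for 6 of them (35.6% of all genes) and above both for none (33.2%). Ndufs6 (ENSMUSG00000021606, chr13:73319838-73328542), a zinc-binding subunit of the NADH-oxidising module whose promoter holds the YY1 letters printed above, lay furthest below both among all subunits. Its levels were 8.99, 12.5 and 17.7, with 243, 132 and 226 reads. Its fold over Cx43-deleted was 1.37 in the matched control (1.10 to 1.71) and 1.96 in WT C57BL6 (1.63 to 2.36). Thus its 3 libraries stood apart beyond counting error, with Cx43-deleted the lowest.

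Ndufa2, Ndufa12 and Ndufa5 had the same order of the libraries as Ndufs6. Ndufa2, a small protein with a thioredoxin-like fold, had levels of 15.9, 19.0 and 29.2 and 853, 403 and 743 reads. The fold over Cx43-deleted was 1.20 (1.06 to 1.35) in the matched control and 1.84 (1.66 to 2.03) in WT C57BL6. Of its exon bases 11.5% also belong to the neighbouring gene Tmco6, and without strand the reads of the overlap cannot be assigned to either gene. Ndufa12 had levels of 6.71, 8.39 and 8.50 and 248, 126 and 180 reads, with folds over Cx43-deleted of 1.29 (1.03 to 1.60) in the matched control and 1.53 (1.26 to 1.86) in WT C57BL6. Ndufa5 had levels of 35.7, 41.9 and 47.1 and 528, 244 and 334 reads, with folds of 1.17 (1.00 to 1.36) and 1.34 (1.16 to 1.53). Ndufs4, whose loss in mice is a standard model of Leigh syndrome, had levels of 13.8, 14.8 and 19.4. Ndufa7 differed from these in having its lowest level in WT C57BL6-BALB/c, with 4.38, 4.01 and 7.28.

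The membrane arm showed the same high values in WT C57BL6 and no common direction against the matched control. WT C57BL6 was highest for 8 of the 9 proximal subunits, which sit near the joint of the arms, and for 8 of the 11 distal ones. Of all genes, 43.8% were highest there. The median log2 ratio of WT C57BL6-BALB/c to WT C57BL6 was -0.46 for the proximal and -0.47 for the distal group, and that of Cx43-deleted to WT C57BL6-BALB/c was -0.01 and 0.07. In the proximal group Ndufc1 lay below both WT libraries, with levels of 11.5, 15.2 and 15.6 and 312, 146 and 191 reads. The fold over Cx43-deleted was 1.18 in WT C57BL6-BALB/c, with an interval that holds 1 (0.966 to 1.45), and 1.29 in WT C57BL6 (1.07 to 1.55).

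Subunits with their highest level in the Cx43-deleted library were few. Ndufab1 (ENSMUSG00000030869, chr7:122085403-122101886), the mitochondrial acyl carrier protein that also serves fatty acid synthesis, was furthest above both by the log2 ratio, with levels of 96.5, 82.2 and 69.2. Its fold over WT C57BL6-BALB/c was 1.16 (1.08 to 1.26; 2688 and 913 reads) and that over WT C57BL6 was 1.32 (1.23 to 1.43; 961 reads). These reads lie on a transcript with a retained intron. On its most abundant coding transcript, with 590, 222 and 233 reads, the log2 ratio to WT C57BL6-BALB/c was 0.07 in place of 0.23. Ndufb2 had levels of 62.2, 55.5 and 58.3 and folds of 1.19 over WT C57BL6-BALB/c (1.09 to 1.31; 1832 and 607 reads) and 1.10 over WT C57BL6 (1.01 to 1.20; 786 reads).

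The other subunits furthest above both WT libraries rested on few reads or on shared sequence. Ndufs5, which lies on the intermembrane side, had levels of 6.54, 4.06 and 5.79 from 133, 45 and 67 reads on its most abundant transcript. Those reads gave folds of 1.17 over WT C57BL6-BALB/c (0.828 to 1.68) and 0.940 over WT C57BL6 (0.696 to 1.28), so that the order of its levels was not carried by that transcript. Ndufb4 had levels of 4.87, 4.62 and 3.94 from 174, 64 and 68 reads, and its folds of 1.07 (0.803 to 1.45) and 1.21 (0.911 to 1.63) both had intervals that hold 1. With Ndufs3, described above, these complete the 5.

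Ndufb7, a distal subunit, shows how the choice of transcript moves a value. Its levels were 61.0, 51.2 and 74.9, a log2 ratio of Cx43-deleted to WT C57BL6-BALB/c of 0.25. Most of its reads (2213, 670 and 1145) lay on a transcript with a retained intron, 4435 bases long, where that ratio was 0.38. On its coding transcript, with 1058, 415 and 758 reads, it was 0.01. In all, 7 members had a most abundant transcript that is not coding, among them Ndufa3, Ndufab1, Ndufb4, Ndufb10 and Ndufs6. For Ndufs6 the coding transcript gave the same log2 ratio to WT C57BL6-BALB/c, -0.45, as the summed levels.

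**Figure D2:**
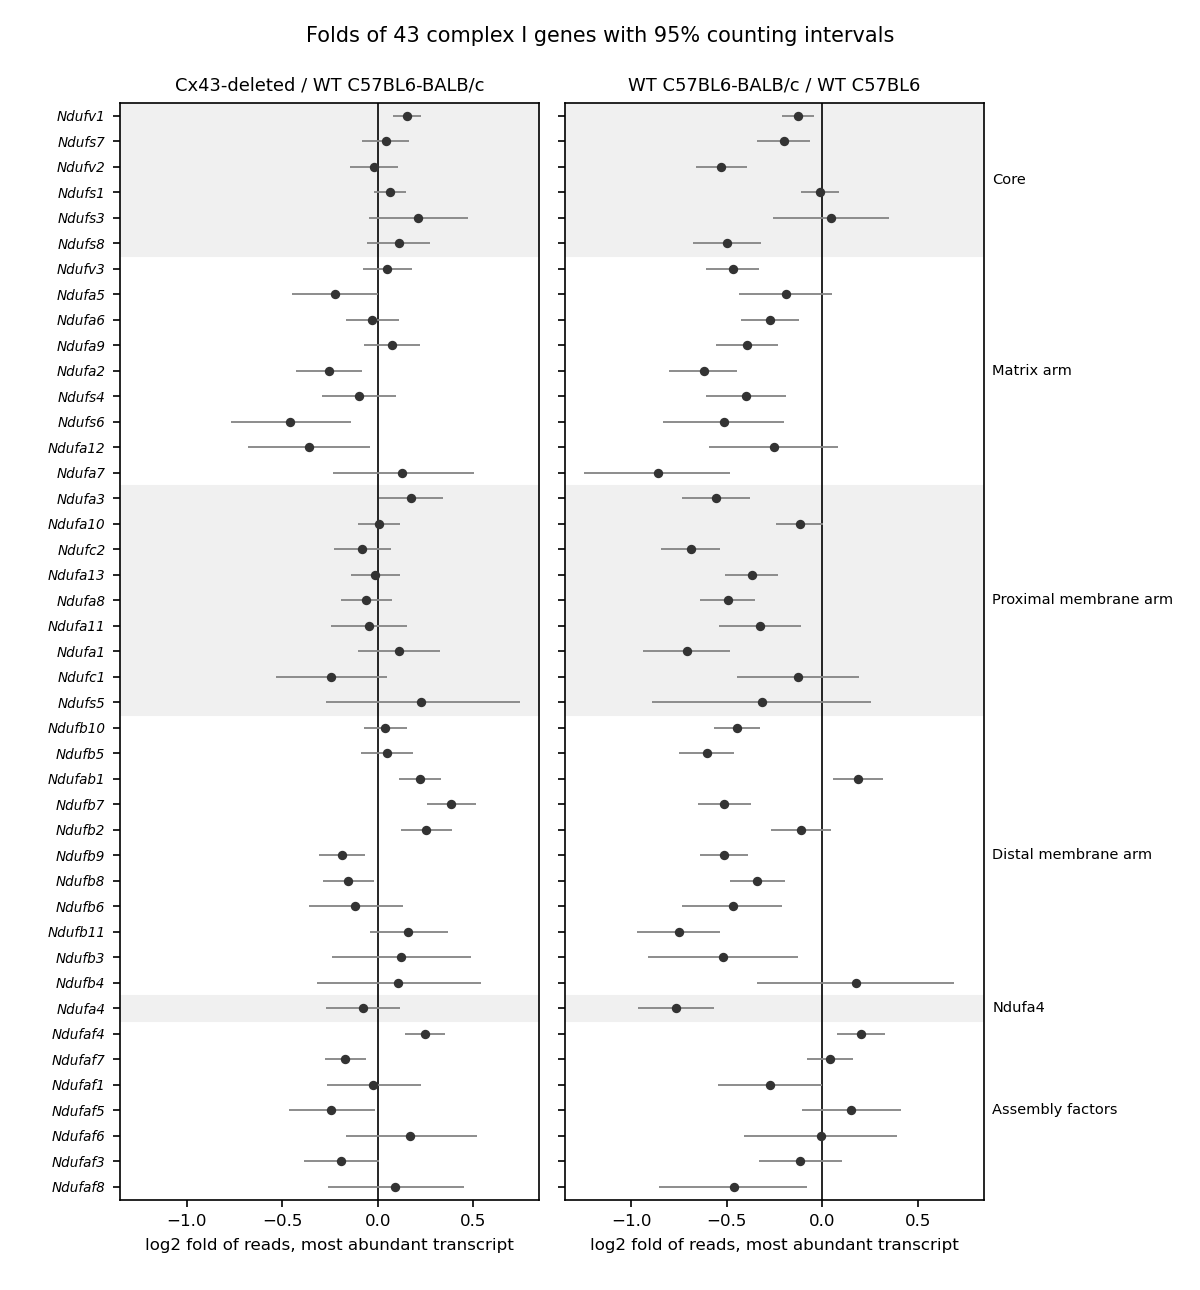
Log2 fold of the reads of the most abundant transcript of 43 members, Cx43-deleted to WT C57BL6-BALB/c on one panel and WT C57BL6-BALB/c to WT C57BL6 on the other, with 95% counting intervals. In the first, 29 intervals hold 0 on the log2 scale (6 lie above it and 8 below; over all genes, 25.3% and 23.5%), and in the second 28 lie below it (32.8% of all genes).

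Over the members, the counting interval of the fold of Cx43-deleted to WT C57BL6-BALB/c lay above 1 for 7 and below 1 for 8 and held 1 for 29. Of all measured genes, 25.3% had an interval above 1 and 23.5% one below it, so the member counts in this comparison are no result about complex I. Against WT C57BL6 it lay above 1 for 4 members (31.8% of all genes), below 1 for 33 (38.0%) and held 1 for 7. Between the WT libraries it lay above 1 for 2 members (27.1% of all genes), below 1 for 29 (32.8%) and held 1 for 13. These intervals leave out differences between animals.

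The 5 members furthest apart between the WT libraries on the side of WT C57BL6 were Ndufa7, Ndufa4, Ndufb11, Ndufa1 and Ndufc2. Ndufa7 had 85 reads in the matched control and 185 in WT C57BL6, a fold of 1.82 (1.40 to 2.38). Ndufb11, an X-linked distal subunit with 12.9% of its exon bases in Rbm10, had levels of 14.0, 12.5 and 21.1 and a fold of 1.68 (1.45 to 1.96; 266 and 536 reads). Ndufa1, the other X-linked member and a small subunit needed for assembly, had levels of 12.5, 11.6 and 18.9 and a fold of 1.64 (1.40 to 1.92; 245 and 480 reads). Ndufc2 (ENSMUSG00000030647, chr7:97400003-97407802) had levels of 41.9, 44.7 and 70.7 and a fold of 1.61 (1.45 to 1.79; 530 and 1023 reads). In Ndufa7, Ndufb11, Ndufa1 and Ndufc2 the log2 ratio of Cx43-deleted to WT C57BL6-BALB/c was 0.11, 0.15, 0.11 and -0.09, so that these libraries lay close together.

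Ndufa4 carries a complex I name, but its protein is known as a subunit of complex IV (cytochrome c oxidase). Its levels were 14.1, 14.9 and 25.3, with 755, 315 and 642 reads. The fold of WT C57BL6 was 1.70 over WT C57BL6-BALB/c (1.48 to 1.95) and 1.80 over Cx43-deleted (1.61 to 2.00). Its related gene Ndufa4l2, which the rule leaves out and which is known from pericytes of the brain, had log2 ratios of -0.15, -0.97 and -0.82 for Cx43-deleted to WT C57BL6-BALB/c, the Cx43-deleted library to WT C57BL6, and between the WT libraries.

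The 5 members furthest on the side of WT C57BL6-BALB/c were closer to 1. They were Ndufab1 (fold 1.14, 1.04 to 1.25), Ndufaf4 (1.15, 1.05 to 1.26), Ndufb4 (1.13, 0.789 to 1.61), Ndufs3 (1.03, 0.835 to 1.28) and Ndufaf5 (1.11, 0.928 to 1.33). The intervals of Ndufab1 and Ndufaf4 alone among them lay above 1.

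By their median, the 7 measured assembly factors did not share the shift of the subunits between the WT libraries. Their median log2 ratio of WT C57BL6-BALB/c to WT C57BL6 was 0.04, against -0.42 over the 37 subunits. WT C57BL6 was the highest library for 3 of 7, against 30 of 37 subunits and 43.8% of all genes. The count of the assembly factors is thus near the background. Their summed levels were 253, 245 and 236, where those of the subunits were 2680, 2476 and 3052. Of the 7, 3 were lower in WT C57BL6-BALB/c than in WT C57BL6 and 4 higher (53.3% and 46.7% of all genes). Ndufaf8 and Ndufaf1 were among the lower, with folds of 0.725 (0.554 to 0.946) and 0.827 (0.685 to 0.998). For Cx43-deleted to WT C57BL6 the median of the 7 was -0.13, with 5 lower (52.9% of all genes). The assembly factors are few, and the difference between the groups was not tested.

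Ndufaf4 (ENSMUSG00000028261, chr4:24898083-24905001), which acts with Ndufaf3 early in the building of the ubiquinone module and holds the longer NRF1 site printed above, was the assembly factor furthest above both WT libraries. Its levels were 126, 108 and 92.9, with 2996, 997 and 1038 reads. The fold of Cx43-deleted was 1.19 over the matched control (1.11 to 1.28) and 1.37 over WT C57BL6 (1.27 to 1.47). Ndufaf6 also had its highest level in Cx43-deleted, with 17.7, 16.6 and 15.6. Its most abundant transcript had 279, 98 and 118 reads, and its fold over WT C57BL6-BALB/c was 1.13 with an interval that holds 1 (0.891 to 1.43). No other assembly factor was highest in the Cx43-deleted library.

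Ndufaf3, Ndufaf5, Ndufaf7 and Ndufaf1 were lowest in the Cx43-deleted library. Ndufaf7, a methyltransferase of the mitochondrial matrix, had levels of 42.5, 47.9 and 46.6 and 2280, 1015 and 1183 reads, with a fold of Cx43-deleted to WT C57BL6-BALB/c of 0.888 (0.824 to 0.957). Ndufaf5, which hydroxylates Ndufs7, had levels of 19.1, 22.7 and 20.5 and 515, 241 and 260 reads, with a fold of 0.845 (0.724 to 0.989). Ndufaf3 had levels of 12.9, 14.7 and 15.9 and 691, 312 and 405 reads, with a fold of 0.876 (0.765 to 1.00). Ndufaf1, which works with Ecsit and Acad9 on the membrane arm, was nearly level with the matched control (levels of 30.2, 30.7 and 38.8; 478, 192 and 278 reads). Ndufaf8, the partner of Ndufaf5, had levels of 4.62, 4.34 and 5.98 from 248, 92 and 152 reads and a fold of 1.07 (0.836 to 1.37). Ndufaf3, the partner of Ndufaf4, thus had an interval that reaches 1, and those of Ndufaf7 and Ndufaf5 lay below 1.

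Of the other complex I assembly factors, which bear other names, 11 were measured, and their medians were 0.02 (Cx43-deleted to WT C57BL6-BALB/c), 0.06 (to WT C57BL6) and 0.02 (between the WT libraries). WT C57BL6 was highest for 4 of the 11, against 43.8% of all genes. Foxred1, whose levels were 685, 577 and 548, was 1.20-fold higher in Cx43-deleted than in WT C57BL6-BALB/c (1.14 to 1.26). As with the Ndufaf genes, the median between the WT libraries was above 0 where that of the subunits was below it.

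The mitochondrially encoded subunits of complex I, which form the core of the membrane arm, were higher in WT C57BL6 too, for 6 of 6 measured (43.8% of all genes). Of these, mt-Nd3 reached a level of 1 in WT C57BL6 alone, so its place in this count was set by the filter on low levels. The median log2 ratios of the 6 were -0.25 (Cx43-deleted to WT C57BL6-BALB/c), -0.67 (to WT C57BL6) and -0.41 (between the WT libraries). mt-Nd6, which is encoded on the other strand from the rest, had levels of 416, 520 and 610, and mt-Nd5 had 1769, 2150 and 2430. mt-Nd3 had 2, 19 and 33 reads and mt-Nd4l none, with 259 of the 348 bases of mt-Nd3 and all 297 of mt-Nd4l uncovered in WT C57BL6-BALB/c, so that these genes were barely seen by the deposited counts. The RNA was selected by poly(A) and the kit keeps no strand, so reads at mt-Nd6 may come from RNA of either strand. Its values are therefore not a measure of mt-Nd6 transcript alone. Copies of mt genes also lie in nuclear DNA.

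The other respiratory complexes also had lower levels in WT C57BL6-BALB/c than in WT C57BL6, by their medians. The median log2 ratio of WT C57BL6-BALB/c to WT C57BL6 was -0.34 over 8 genes of complex II, -0.29 over 9 of complex III, -0.45 over 10 of complex IV and -0.32 over 15 of complex V (ATP synthase). It was -0.20 over 76 mitochondrial ribosomal protein genes. For Cx43-deleted to WT C57BL6-BALB/c the same lists gave -0.04, 0.05, 0.03, -0.02 and 0.02. The 12 regulators of mitochondrial biogenesis were ordered the other way between the WT libraries, with a median of 0.15, and WT C57BL6 was highest for 2 of the 12 (43.8% of all genes). Among them Nrf1, whose product binds the NRF1 site, was furthest above both WT libraries in Cx43-deleted, with levels of 501, 359 and 347 and a fold over WT C57BL6-BALB/c of 1.36 (1.27 to 1.45). The 5 members with the NRF1 core had a median of -0.05 for Cx43-deleted to WT C57BL6-BALB/c, and of these Ndufaf4 alone had a ratio above 0. The 8 members with the YY1 letters had medians of -0.03 in that comparison and -0.39 between the WT libraries, where the 44 members had 0.02 and -0.39.

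**Figure D3:**
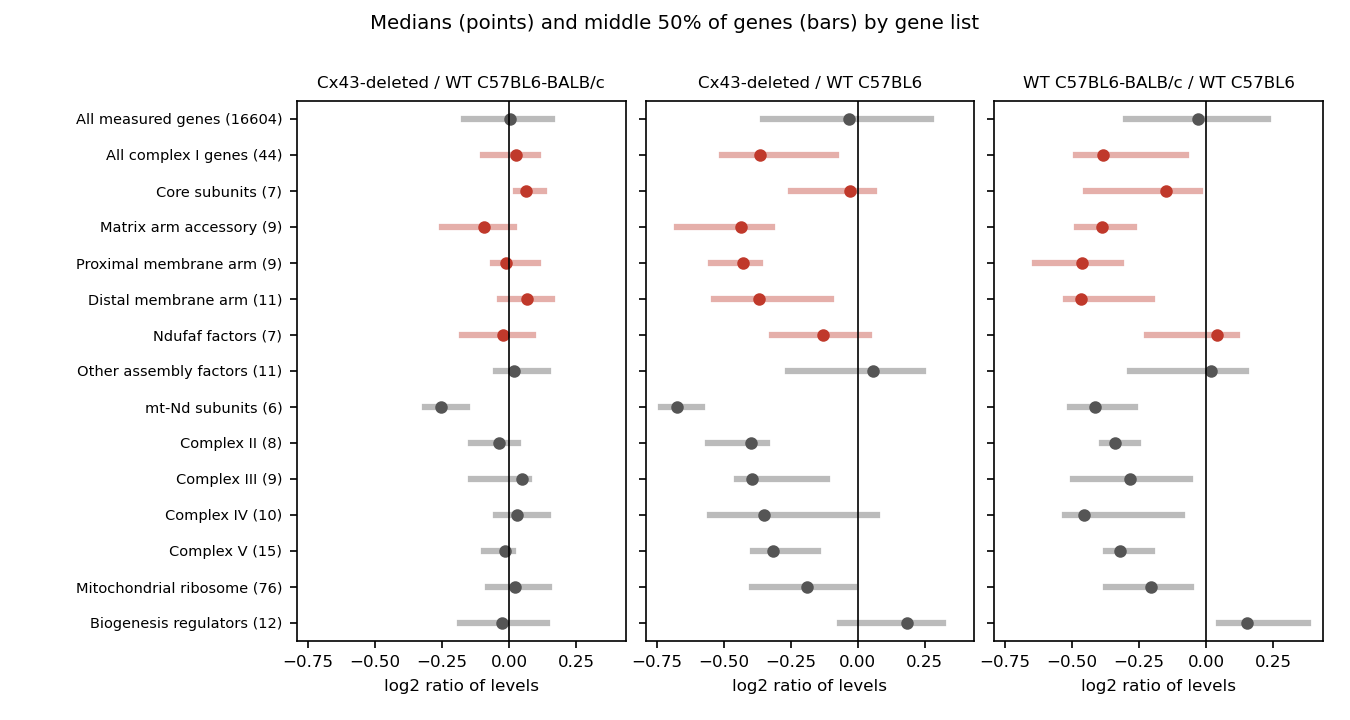
Median log2 ratio (points) and middle 50% of genes (bars) for the complex I groups, other respiratory complexes, mitochondrial lists and all measured genes, in the 3 comparisons. The medians of the subunit groups and complexes II to V lie below 0 against WT C57BL6. Between the WT libraries those of both assembly factor lists and the biogenesis regulators lie above 0. For Cx43-deleted to WT C57BL6 the Ndufaf median (-0.13) lies further below 0 than that of the core subunits (-0.03).

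Cell type markers and transcript length differed between the WT libraries along with the members. The median log2 ratio (WT C57BL6-BALB/c over WT C57BL6) was -0.70 over the 10 endothelial markers, 9 of which were highest in WT C57BL6, and -0.73 over 6 pericyte markers (6 of 6). Summed levels of the pericyte markers were 2718, 2668 and 4487. The 5 choroid plexus markers, among them Ttr, gave -1.42 (5 of 5; sums of 3603, 2590 and 6904), and the 5 red blood cell markers gave -0.97 (5 of 5; 287, 362 and 652). The 8 neuronal markers gave 0.31, with 2 of 8 highest in WT C57BL6. Of all genes, 43.8% were highest in WT C57BL6 and 23.0% in WT C57BL6-BALB/c. The 6 smooth muscle markers were all highest in WT C57BL6-BALB/c (1937, 3326 and 2552), with a median of -0.86 for Cx43-deleted to that library. The sums of 6 astrocyte markers were 1797, 2140 and 2196 and those of 5 microglia markers 189, 185 and 270. Slc1a2 (944, 1233 and 1208) and Csf1r (128, 125 and 192) were the largest parts of these sums. No marker was at 0, and the lowest, Hba-a2, had levels of 0.0373, 0.189 and 1.81. It reached a level of 1 in WT C57BL6 alone, so its place among the 5 red blood cell markers highest there was set by the filter. What these lists contribute to the values of the complex I genes was not tested.

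Most accessory subunits are short proteins with short transcripts. Among all protein-coding genes the median log2 ratio of WT C57BL6-BALB/c to WT C57BL6 ran from -0.24 for transcripts of up to 500 bases (126 genes) to 0.10 for those over 4000 (4211 genes). Members lay below these medians in the short ranges: -0.61 over 7 members of up to 500 bases, -0.47 over 10 of 500 to 750 (all genes, -0.25) and -0.45 over 8 of 750 to 1000 (all genes, -0.21). The 14 members of 1000 to 2000 bases had a median of -0.07, against -0.16 over all genes of that length. The 3 of 2000 to 4000 bases had 0.05, against -0.05, and the 2 over 4000 bases had -0.31. These lengths are of the most abundant transcript, which is not coding for 7 members. Ndufb7 is over 4000 bases through a transcript with a retained intron (4435 bases), where its coding transcript has 623. Transcript length and the role of the protein overlap among the members, and what length contributes was not tested.

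**Figure D4:**
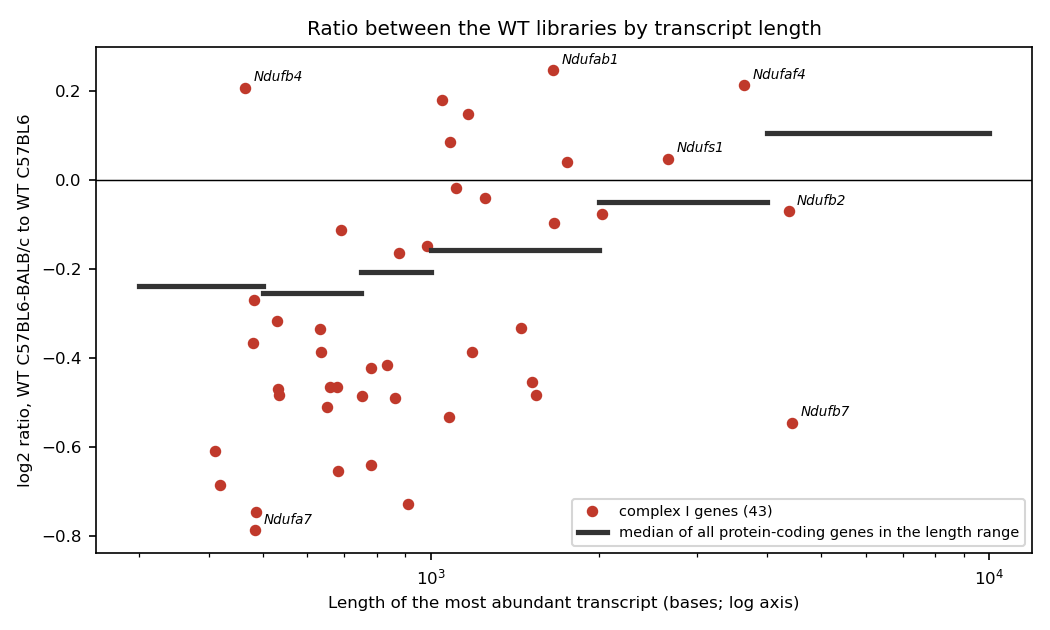
Log2 ratio of WT C57BL6-BALB/c to WT C57BL6 for 43 members against the length of its most abundant transcript (bases, log axis), with the median of all protein-coding genes in each length range as a line. Members under 1000 bases lie mostly below the line (medians over all 44 of -0.61, -0.47 and -0.45), and those of 1000 to 2000 bases have a median of -0.07. Some members, among them Ndufb7, are drawn at the length of a transcript with a retained intron.

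Complex I genes have left processed copies in the genome, and some members had many bases without a read. Whether the uncovered bases are the shared ones was not examined. The share of 50-base words of the coding transcript that also occur in other genes was above 25% for 6 members and 0 for 22. The share of bases without a read in WT C57BL6-BALB/c was above 25% for 5 members. Both held for 4: Ndufb4 (37.0% of words shared, 66.3% of bases uncovered), Ndufs5 (31.1% and 44.3%), Ndufa12 (26.2% and 35.2%) and Ndufs3 (39.7% and 31.5%). Each of these 4 shares most with a copy annotated as Ndufb4c, BC002163, Gm15920 and Gm12251 respectively, and their levels are therefore uncertain. The other 2 with shared words, Ndufb6 and Ndufa13, overlap their neighbours Smim27 and Tssk6 and were covered, with 20.3% and 5.20% of bases without a read. Ndufa5 was the exception, with 57.1% uncovered and no word shared. WT C57BL6-BALB/c is the library with the fewest reads. In the deeper Cx43-deleted library the uncovered share was 52.8% for Ndufb4, 23.2% for Ndufs3, 17.3% for Ndufa12 and 15.8% for Ndufa5. What depth and shared sequence each contribute was not tested.

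**Figure D5:**
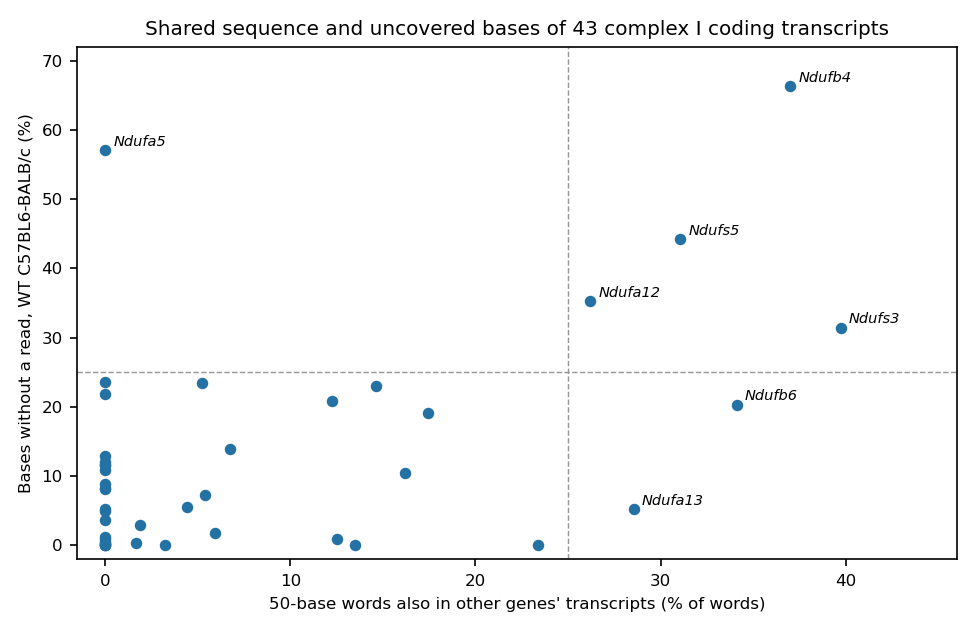
Bases of the coding transcript without a read in WT C57BL6-BALB/c (percent) against 50-base words shared with other genes (percent), 1 point for each of 43 members. Ndufb4, Ndufs5, Ndufa12 and Ndufs3 lie above 25% on both axes, Ndufa5 is high on the uncovered axis alone, and Ndufa13 and Ndufb6 on the shared axis alone.

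Across the 44 members the 2 shares gave Pearson's r = 0.53 and Spearman's rho = 0.30, a description over genes of the same library. Leaving out the 6 members with over 25% of shared words left the group values nearly as they were: the medians of the other 38 were 0.02, -0.37 and -0.40 for Cx43-deleted to WT C57BL6-BALB/c, Cx43-deleted to WT C57BL6 and WT C57BL6-BALB/c to WT C57BL6. Of the 6, 4 were lower in WT C57BL6-BALB/c than in WT C57BL6, and 32 of the 38 were. Exons of 10% or more were shared with a neighbouring gene for 6 members, Ndufb6, Ndufa13, Ndufb9, Ndufb11, Ndufb5 and Ndufa2, whose reads in the overlap may come from either gene.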

How the data were processed

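Brain vessel RNA was selected by poly(A) and made into 3 libraries, 1 for each group, with a kit that keeps no strand, per the labels' protocols. For each of the 82813 Ensembl transcripts the authors deposited a whole-number count of reads, per the file headers, and a fraction, which is that count over a single total for the library. Count divided by fraction gave the depth. The counts sum to 2.55, 2.53 and 2.45 times the depth, so a read could be counted more than once. Overlapping transcripts and reads matching several places could both give such sums, and they were not told apart. The submitters' processing notes name CASAVA 1.8.2, Bowtie and mm10. How reads were counted, with which annotation, and what was done with reads matching several places are not stated in the sources used here.

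Coordinates in the tables are of an older build (they reach 197054592 on chromosome 1, where the last GRCm38 gene ends at 195323493) and were not used. Of the identifiers, 69375 (83.8%) matched GENCODE M21 on GRCm38, and 213 of these were left out for lying on another chromosome than in the tables. Matched transcripts carried 83.4%, 83.4% and 84.0% of the counts. CPM are counts summed over the transcripts of a gene over the depth, scaled by TMM factors of 0.976, 1.00 and 1.02 from edgeR 4.0.16 (R 4.3.3). Log2 ratios used a pseudocount of 0.5, which understates ratios of low genes, and genes reaching a level of 1 in any library were kept. Folds used the most abundant transcript's reads, scaled alike, with exact binomial 95% intervals (scipy 1.17.1, Python 3.11.15). PCR copies are not independent molecules, so these cover counting error only. No p-value is given. The steps were tested on simulated data.

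Full values were given for the core subunits (1 of the 7 is not reported here and not drawn, but is counted in the groups), the 5 subunits furthest above and the 5 furthest below both WT libraries, the assembly factors and the 5 members furthest each way between the WT libraries. Values for Ndufb7, Ndufs4 and Ndufa13 were chosen after they were seen. The members and lists were chosen with earlier results of these data known.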

Additional observations from a re-analysis of the deposited data

How the results depend on the processing

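The medians and counts over members were recomputed with pseudocounts of 0.1 and 1, median-of-ratios size factors (DESeq2 1.42.0), library totals alone, no filter, a minimum level of 5 (43 members), the most abundant transcript only and coding transcripts only. The most abundant coding transcript only, and leaving out members with over 25% of shared words, were added after seeing the data. Counts were held to 1.5 times and medians to the typical margin (median over members) of the counting intervals, 0.17 in log2. All 44 members pass the filter, so leaving it out could not move their values. Of 366 such values 359 stayed within these limits. Of the others, 6 came from asking for a distance of 1.5-fold. The members below both other libraries then went from 20 to 0 in Cx43-deleted, from 18 to 0 in WT C57BL6-BALB/c and from 6 to 0 in WT C57BL6, and those above both from 9 to 0, from 2 to 0 and from 33 to 4. The last was the number 2-fold or more lower in Cx43-deleted than in WT C57BL6, which was 0 and became 1 (Ndufs6) with library totals alone. The median ran from -0.01 (library totals alone, where that of all genes was -0.03) to 0.04 for Cx43-deleted to WT C57BL6-BALB/c, from -0.43 to -0.34 for Cx43-deleted to WT C57BL6 and from -0.42 to -0.36 between the WT libraries. Members highest in WT C57BL6 numbered 30 to 34. Of 1185 values for single genes 10 moved beyond their counting interval, among them 6 of Ndufb7 and 2 of Ndufab1 with other choices of transcript, and 17 changed sign. No paired analysis was possible because each group has 1 library, and none could be left out. The depth limits Ndufs5 most, with 45 reads in WT C57BL6-BALB/c.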
